A study of Chromochloris zofingiensis with 38 samples.

Results

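The comparison described here sets cells held for 24 h with the TOR inhibitor labelled AZD beside cells held for 24 h with the addition labelled S. The cells were wild-type Chromochloris zofingiensis, a unicellular green alga known for storing lipid and the red ketocarotenoid astaxanthin. Members were chosen by their sample titles, which gave 8 of the 38 libraries in the series, 4 labelled AZD and 4 labelled S. The other libraries carry the labels None, Glu and GA, with 4, 4 and 3 of them at 24 h, and all 5 labels recur at 1 h. Per the series description the study combined TOR inhibition by AZD with glucose addition, so Glu is read as glucose and None as no addition. What S and GA hold, and whether S is the solvent of the inhibitor, is not stated in the labels. Nor do the labels give a dose or tell whether replicates were grown separately. The p-values therefore measure the spread between these libraries, which may be technical. RNA came from frozen cell pellets of bulk culture, so fewer cells and less RNA per cell cannot be told apart. The check of a targeted gene could not be made, since the inhibitor acts on a protein and the IDs carry no names.

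TOR, the target of rapamycin, is a eukaryotic protein kinase that promotes growth, ribosome production and protein synthesis when nutrients are plentiful and restrains autophagy. Inhibitors of its kinase site block it directly. In green algae TOR inhibition is known to slow growth and to shift carbon and nitrogen towards storage compounds and free amino acids. The deposited table names genes by locus ID without products, so 0 IDs could be given a function and no pathway list was counted. The results below therefore follow groups of genes defined by their size of change, their level, their time course and their behaviour with glucose, and print a few IDs chosen by a fixed rule.

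Library totals of the 8 members ran from 17249191 to 32060964 estimated counts, and the AZD and S libraries overlapped in depth. Levels are given as CPM, read counts scaled to a common library size with TMM factors, and every rise or fall is relative to the middle of the expressed genes. Each AZD library lay 1.71 to 1.77 from the S mean, as the root mean square log2 difference over 12142 genes, and 0.36 to 0.47 from the mean of the other AZD libraries. For the S libraries this distance within the group was 0.37 to 0.57. The distance between groups was thus larger than any distance within them. The median SD of a gene over replicates was 0.20 on the log2 scale in AZD and 0.22 in S.

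At 24 h, 8823 of the 12142 genes tested (72.7%) differed between AZD and S at an adjusted p under 0.05 (quasi-likelihood test of edgeR, Benjamini-Hochberg over all genes). Among these, 4124 rose (34% of genes tested) and 4699 fell (38.7%). The falls reached further than the rises. At 2-fold or more, 5046 genes were called (41.6%), with 2219 rises (18.3%) and 2827 falls (23.3%). Rises and falls numbered 776 and 1314 at 4-fold or more, 273 and 664 at 8-fold, 125 (1.03% of genes tested) and 369 (3.04%) at 16-fold, and 28 and 148 at 64-fold. The median log2 fold change was 1.07 among risen genes and -1.23 among fallen genes. Among the 369 largest falls, 24 genes had 0 counts in all 4 AZD libraries, and among the 125 largest rises, 5 had 0 counts in all 4 S libraries.

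Whether rises or falls were the majority depended on the setting, while the excess of falls at 2-fold or more did not in the settings tried. The rising share of all called genes was 46.7% and ran from 40.4% with library totals alone to 51.3% with DESeq2 size factors, where the median log2 fold change over all genes was -0.07, -0.22 and 0.03 in turn. It was also over 50% without the filter on low counts, with DESeq2, and without AZD replicate 1, 2 or 4 or S replicate 3 or 4, at 50.1 to 51.3%. At 2-fold or more, falls outnumbered rises in all 15 alternative settings, with 2617 to 3163 falls against 1927 to 2489 rises.

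**Figure D1:**
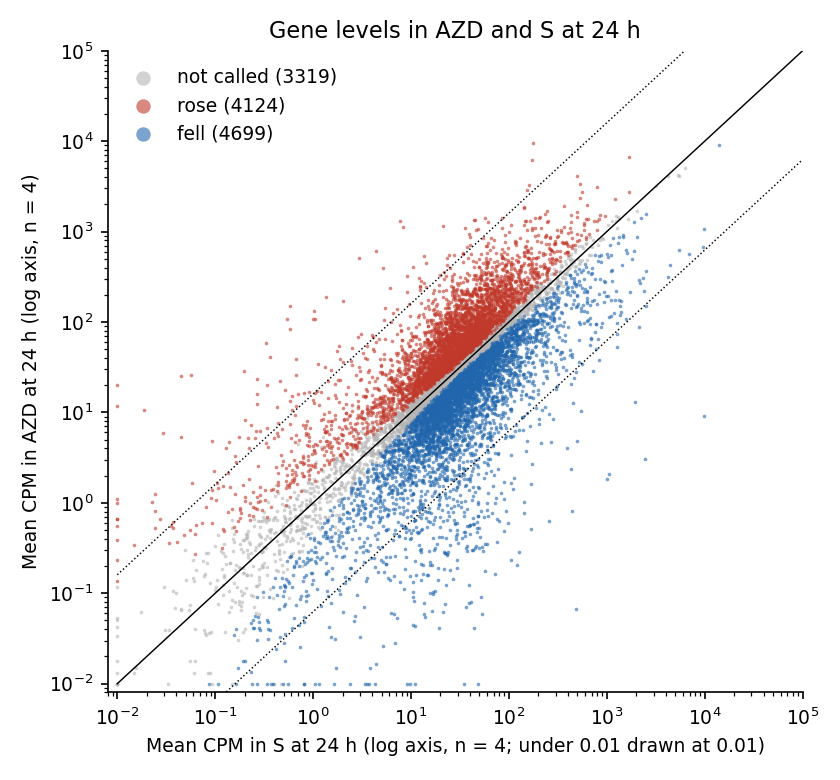
Mean CPM of each of the 12142 tested genes in AZD (vertical) against S (horizontal) at 24 h, both on log axes, with 4 libraries per mean and values under 0.01 drawn at 0.01. The solid line marks equal levels and the dotted lines a 16-fold difference, beyond which 369 called genes lay below and 125 above by their fitted fold change.

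Most differences separated the groups in every library. No overlap between the 4 AZD and the 4 S libraries was seen for 8142 genes (67.1% of those tested), 31.3% with AZD higher and 35.8% with AZD lower, and 7917 of these were also called. Among genes called at 2-fold or more, 4907 of 5046 showed no overlap. Each single AZD library lay above the S mean for 99.6 to 99.95% of the risen genes and below it for 99.9 to 99.98% of the fallen genes, a direction that the choice of genes largely fixes. Leaving out each of the 8 libraries in turn gave 8511 to 8625 called genes.

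The most abundant transcripts of control cells held a smaller share of the counts in AZD. The 100 genes with the highest mean CPM in None at 24 h, libraries that are not part of the comparison, held 28.6, 26.5, 22.2 and 23.9% of the counts in S replicates 1 to 4. In AZD replicates 1 to 4 the same genes held 9.02, 10.2, 9.79 and 10.7%. The groups did not overlap. The means were 25.3% ± 2.82 in S and 9.91% ± 0.703 in AZD (SD, n = 4 each; exact two-sided permutation test, p = 0.0286, the smallest that 4 against 4 allows). In None, where the genes were chosen, they held 26.6% ± 1.75 (n = 4). S lay close to None at 24 h, so genes picked as high in None were also high in S. A lower share in a group away from both was thus largely set by this choice, whatever the p-value. The same genes held a mean of 14.7% in Glu and 6.17% in GA at 24 h, and 17.0% in S at 1 h.

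The counts in AZD were less concentrated in the top genes of each library. The 100 most abundant genes of each library itself held 20.9% ± 0.831 of its counts in AZD and 25.6% ± 2.72 in S (n = 4 each, exact permutation p = 0.0286). At 24 h this share was 27.4% ± 1.54 in Glu (n = 4) and 27.4% ± 1.56 in GA (n = 3). Of the CPM gained over the risen genes, 50% lay in 260 genes, while 50% of the CPM lost came from 110 genes. The 10 genes that lost most CPM fell from 8.65% ± 1.29 of counts in S to 1.47% ± 0.275 in AZD, and the 10 that gained most went from 0.660% ± 0.0246 to 5.09% ± 0.309, as a description of genes picked by this difference.

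Fewer genes reached a given level in AZD. Genes at 1 CPM or more numbered 11256, 11247, 11231 and 11260 in AZD replicates 1 to 4 and 11476, 11480, 11559 and 11540 in S replicates 1 to 4. Every AZD library was below every S library, with a mean difference of -265 genes (exact permutation p = 0.0286, n = 4 each). At a limit of 5 CPM the difference was -669 genes. The lower number was not particular to AZD, since genes at 1 CPM or more averaged 11077 in Glu and 11177 in GA at 24 h. In None at 24 h the mean was 11508. Near-complete losses outnumbered gains. Of the 12142 genes tested, 114 were under 1 CPM in every AZD library and at 10 CPM or more in every S library, and 18 had the reverse pattern. Most genes were at 1 CPM or more in S, so these limits left less room for gains than for losses. Between S and None the same limits found 0 genes in each direction, and between AZD and S at 1 h they found 10 and 1.

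**Figure D2:**
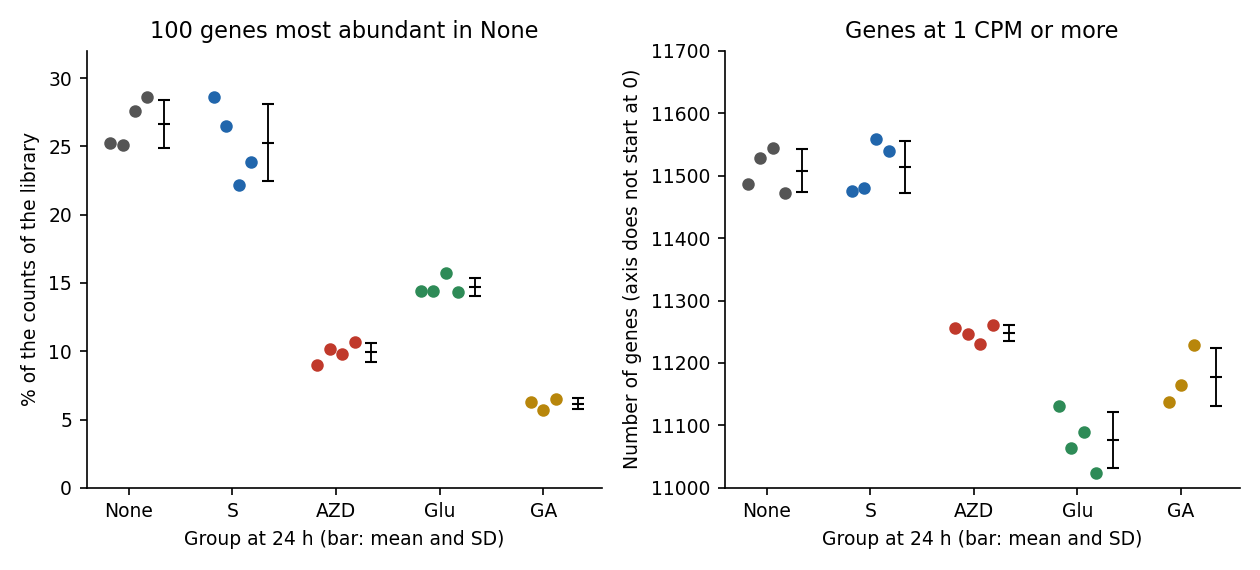
Share of counts held by the 100 genes most abundant in None (left) and number of genes at 1 CPM or more (right) in each library at 24 h, with the mean and SD of each group beside the points. The AZD libraries (9.02 to 10.7%, 11231 to 11260 genes) sat below all S libraries (22.2 to 28.6%, 11476 to 11559 genes).

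The share of genes called in AZD against S varied with their level in None at 24 h. Genes were divided into 5 equal bins by their level in None at 24 h. In the lowest bin, with a median of 3.88 CPM, 26.4% of genes rose and 22.2% fell at least 2-fold. In the highest bin, with a median of 111 CPM, 15.0% rose and 30.3% fell at least 2-fold. The share that fell at any size climbed from bin to bin, at 28.1, 37.8, 38.3, 41.0 and 48.3%, while the share that rose stayed between 33.9 and 36.3% in the lower 4 bins and was 29.0% in the highest. The median log2 fold change was 0.13 in the lowest bin and -0.29 in the highest. Low genes have fewer counts, so a change of a given size passes the test less readily there. S lay close to None, so genes high or low in None were also high or low in S. More falls in the highest bin and more rises in the lowest were thus in part set by this choice of bins. The trend was not tested.

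By rule 4 IDs are named for the comparison, those with the largest fitted fold change and the largest difference in mean CPM in each direction, among called genes without overlap and with at least 10 CPM in the higher group. Cz05g12170 gained the most CPM. It stood at 285, 209, 94.5 and 121 CPM in S replicates 1 to 4 and at 8413, 12210, 8261 and 9622 CPM in AZD replicates 1 to 4. All AZD libraries lay far above all S libraries. The means were 177 ± 87.0 and 9627 ± 1827 CPM, a 54.3-fold rise (log2 5.76 ± 0.32 SE, edgeR quasi-likelihood adjusted p = 1.90e-17). Its level in Glu was 6783 ± 1732 CPM against 349 ± 95.9 in None, and in GA it reached 42098 ± 13560 CPM (n = 3), so it was also above None in both of these groups.

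Cz03g21010 lost the most CPM. The S libraries held 15152, 10310, 6191 and 7579 CPM of it and the AZD libraries 6.97, 15.4, 6.61 and 7.86 CPM, in replicate order. It was among the most abundant transcripts in every S library and a minor one in every AZD library. The fold change was 1073 (log2 -10.07 ± 0.52 SE, edgeR quasi-likelihood adjusted p = 4.42e-18). In Glu it stood at 433 ± 250 CPM and in GA at 39.2 ± 19.1 CPM, below the 17438 ± 5791 CPM of None.

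Cz02g20090 was named for its fitted fall. Its rank rests on a fold against 0 counts, which depends on the prior count. S replicates 1 to 4 held 42.2, 50.9, 49.3 and 49.4 CPM, and the 4 AZD libraries held 0 counts. Against a floor of 3 counts over the group of AZD libraries, it was at least 1896-fold lower in AZD (edgeR quasi-likelihood adjusted p = 9.28e-22). In Glu it stood at 9.04 ± 0.924 CPM and in None at 70.1 ± 7.09 CPM. The 3 GA libraries held 2 counts in all.

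Cz15g22040 was named for its fitted rise, whose rank has the same limit. It went from 0 counts in the 4 S libraries to 12.2, 11.9, 11.5 and 11.1 CPM in AZD replicates 1 to 4. It was at least 473-fold higher in AZD against the same floor over the group of S libraries (edgeR quasi-likelihood adjusted p = 1.35e-11). It was near 0 in None, with 0.122 ± 0.103 CPM from 13 counts, and stood at 7.07 ± 1.32 CPM in GA. No alternative setting or left-out library turned the direction of these 4 genes or took the adjusted p above 2.59e-07.

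**Figure D3:**
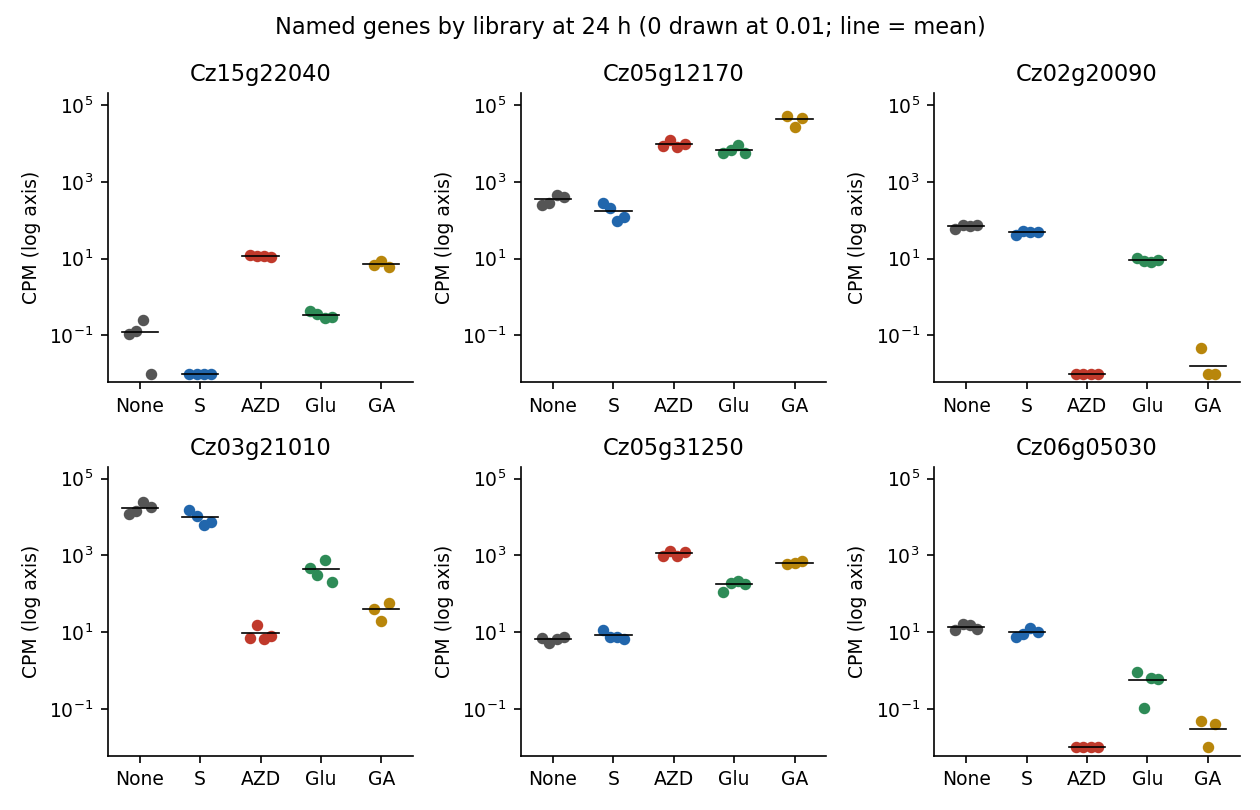
CPM in each library at 24 h of 6 genes named by rule, on log axes with 0 drawn at 0.01 and the group mean as a line. Cz15g22040, Cz05g12170 and Cz05g31250 are high in AZD, Cz02g20090, Cz03g21010 and Cz06g05030 are low, and in each gene the GA libraries lie on the same side of S as the AZD libraries.

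The S libraries lay close to None at 24 h, so the choice of control changed little for most genes. S and None differed by 0.32 (root mean square log2 difference of group means), against 1.71 for AZD and S and 1.81 for AZD and None. The comparison of S with None called 116 genes (0.955%). Leaving out 1 library moved this count by over 1.5 times in 7 of 8 cases, to 20, 22, 24, 36, 41 and 63 genes without None replicate 3, S replicate 3, S replicate 4, None replicate 4, None replicate 2 and S replicate 2, and to 176 without None replicate 1. Against None in place of S, and with the same AZD libraries, 8909 genes (73.4%) were called.

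For some genes S and None gave different reference levels. Cz07g04220, named as the largest rise in S against None, stood at 62.7, 63.3, 73.0 and 82.5 CPM in S replicates 1 to 4 and at 21.2, 14.01, 9.44 and 14.5 CPM in None replicates 1 to 4. Every S library was above every None library (log2 2.25 ± 0.28 SE, edgeR quasi-likelihood adjusted p = 3.31e-05). In AZD its mean was 7.64 ± 2.82 CPM, which made its log2 fold change -3.20 against S and -0.95 against None. Cz09g11130, named as the largest fall, stood at 107, 100.3, 35.7 and 48.9 CPM in S and 170, 215, 265 and 295 CPM in None (log2 -1.70 ± 0.36 SE, edgeR quasi-likelihood adjusted p = 0.0156), a call lost in 6 of 14 alternative settings. Its AZD mean of 381 ± 56.4 CPM was 2.39 above S and 0.69 above None on the log2 scale, and the second difference did not pass (edgeR quasi-likelihood adjusted p = 0.0774).

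Many genes responded differently at 24 h and at 1 h. At 1 h, AZD against S (3 against 4 libraries) called 6549 genes (53.9%), with 14 rises and 58 falls of 16-fold or more. S replicate 1 at 1 h stood apart from the other S libraries of that time, at 0.75 from their mean against 0.47 to 0.50 for the others, and without it 6199 genes were called. The test of the difference between the responses at 24 h and 1 h called 7170 genes (59.1%). The sample titles carry another prefix at 24 h than at 1 h, so time and whatever the prefix marks cannot be told apart.

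Of the genes whose responses differed, 2900 were called at 24 h and not at 1 h, 1078 at 1 h and not at 24 h, and 91 at neither. A further 698 rose at both times and more strongly at 24 h, and 205 rose at both times but less strongly at 24 h. Falls at both times were stronger at 24 h for 444 genes and weaker for 445. Opposite directions were seen for 1309 genes, with 800 early rises that became falls and 509 early falls that became rises. Without S replicate 1 at 1 h these counts were 565 and 597, so which of them was larger rests on that library. Of the 4124 genes risen at 24 h, 1902 had risen at 1 h (46.1%), where 28.4% of all genes rose. Of the 4699 fallen at 24 h, 1811 had fallen at 1 h (38.5%), where 25.5% of all genes fell. Across genes, which are not independent replicates, the log2 fold changes at the 2 times had r = 0.24 and rho = 0.32, with 0 libraries in common.

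Few of the genes with the largest late falls had also fallen early. Among genes that fell less than 2-fold at 24 h, 44.1% had fallen at 1 h, and among those that fell 2- to 4-fold, 44.0%. The share was 29.8% for falls of 4- to 16-fold and 10.3%, or 38 of 369 genes, for falls of 16-fold or more. In the last class 91 genes (24.7%) had risen at 1 h. Over all genes 28.4% rose and 25.5% fell at 1 h, so early rises in this class were not in excess of that share. Without S replicate 1 at 1 h the counts in this class were 47 fallen (12.7%) and 52 risen (14.1%). Over all 12127 genes then tested, 3386 fell and 2813 rose. The clear majority of early rises over early falls in this class thus rests on that library, while its low share of early falls does not.

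Levels show the same course. The median CPM over the 369 genes was 14.4, 16.9, 15.9 and 15.4 in S replicates 1 to 4 at 1 h and 17.6, 18.7 and 23.6 in the 3 AZD libraries at 1 h. At 24 h it was 26.9, 25.3, 27.4 and 26.8 in S and 0.524, 0.532, 0.429 and 0.482 in AZD. AZD was thus not below S at 1 h and far below it in every library at 24 h. The median over the 125 genes that rose 16-fold or more was 3.24, 3.25 and 3.50 CPM in AZD at 1 h, above the 1.28 to 2.68 CPM of the S libraries, and 50.1 to 56.6 CPM in AZD at 24 h against 0.879 to 1.30 in S.

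Cz06g05030 was named for the most negative difference between the times among genes called in opposite directions. At 1 h it stood at 10.5, 13.0 and 18.3 CPM in AZD and at 5.75, 8.20, 8.29 and 6.79 CPM in S, in replicate order. At 24 h S held 7.51, 8.75, 12.5 and 10.3 CPM, and the 4 AZD libraries held 0 counts. The gene was thus higher in every AZD library than in any S library at 1 h, a rise not called without S replicate 1 (log2 0.75, edgeR quasi-likelihood adjusted p = 0.0705), and not detected in any at 24 h, where the fall was at least 390-fold against the floor of 3 counts over the AZD group. The difference of the responses passed the test (edgeR quasi-likelihood adjusted p = 7.65e-14).

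Cz05g31250 was named for the most positive difference. At 1 h the AZD libraries held 3.24, 2.81 and 2.89 CPM and S replicates 1 to 4 held 22.2, 9.03, 6.94 and 3.51 CPM. At 24 h the AZD libraries held 974, 1295, 980 and 1240 CPM and the S libraries 11.3, 7.63, 7.39 and 6.53 CPM. At 1 h it was thus lower in every AZD library than in any S library, while S spread widely and None stood at 2.46 ± 0.417 CPM (n = 4). The fall at 1 h was not called without S replicate 1 (log2 -1.21, edgeR quasi-likelihood adjusted p = 0.162). It was 136-fold higher in AZD than in S at 24 h by summed counts (95% Poisson interval 128 to 145, for counting error only). The difference of the responses was 8.92 ± 1.03 (log2, SE; edgeR quasi-likelihood adjusted p = 4.48e-09), and 8.39 to 9.20 with single libraries left out.

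**Figure D4:**
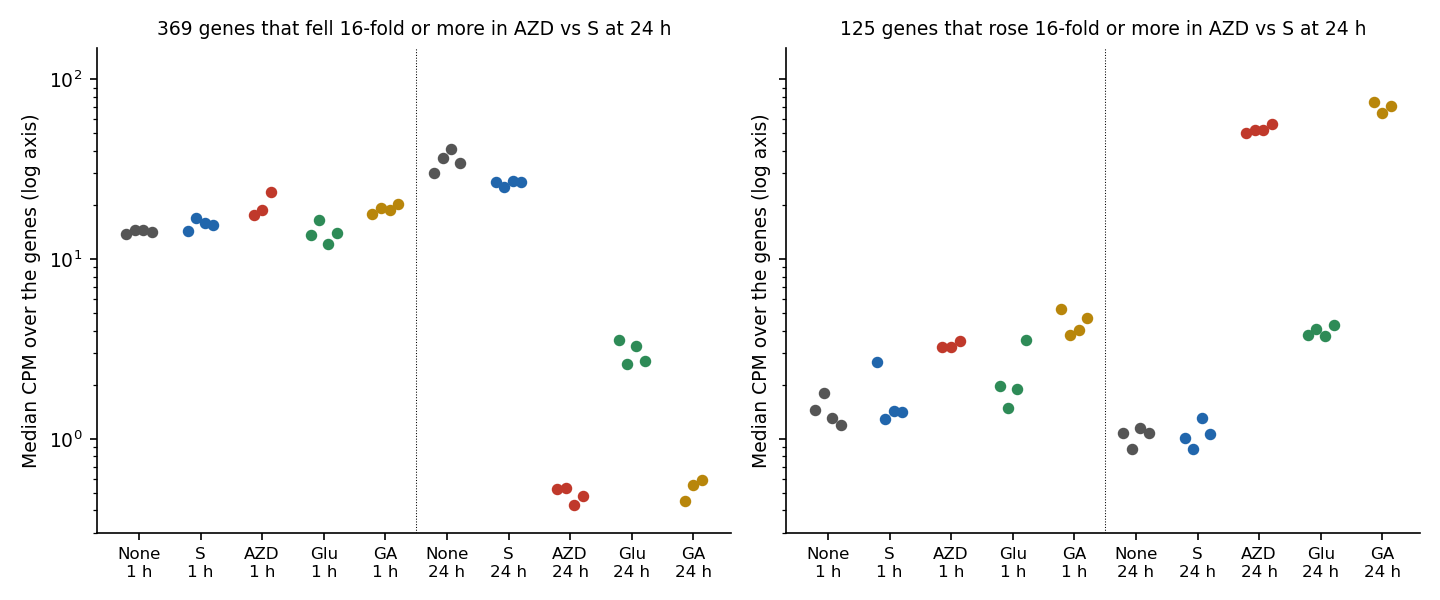
Median CPM, on a log axis, over the 369 genes that fell (left) and the 125 genes that rose (right) 16-fold or more in AZD against S at 24 h, for each of the 38 libraries. The genes were chosen by the difference between AZD and S at 24 h; in the other groups, the fallen genes stood at 12.1 to 23.6 CPM in all libraries at 1 h and at 2.62 to 3.55 CPM in Glu at 24 h.

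Most genes with large late falls also fell with glucose. Glu against None at 24 h has 0 libraries in common with AZD against S, and called 8351 genes (68.8%), with 32.8% of all genes up and 36% down. Of the 369 genes that fell 16-fold or more in AZD, 333 (90.2%) also fell in Glu and 9 rose. Of the 945 that fell 4- to 16-fold, 648 (68.6%) fell in Glu. Among falls under 2-fold, 33.6% fell and 37.8% rose in Glu, which is near the shares over all genes. Of the 114 genes that went from 10 CPM or more in S to under 1 CPM in AZD, 113 fell in Glu and 0 rose. Though no library is shared, the 2 comparisons have similar baselines, since S lay close to None. The 369 genes had a median of 27.6 CPM in S and 35.7 in None. Genes picked as high in S were thus also high in None, and their falls in Glu were in part set by the choice.

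Of the 125 genes that rose 16-fold or more in AZD, 77 (61.6%) rose in Glu and 7 fell, and of the 651 that rose 4- to 16-fold, 367 (56.4%) rose and 103 fell. The 125 genes were low in both baselines, with a median of 1.06 CPM in S and 1.30 in None, which in part set their rises in Glu. Among rises under 2-fold the shares were 37.5% risen and 27.9% fallen. Over all called genes, 1772 rose in both, which is 43.0% of the genes risen in AZD and 44.5% of those risen in Glu. Falls in both numbered 2263, or 48.2% and 51.8% of the respective lists. The log2 fold changes had r = 0.47 and rho = 0.31 across genes. Opposite calls numbered 1010 genes up in AZD and down in Glu and 1266 with the reverse.

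In level, Glu lay between None and AZD for these genes. They were chosen as far lower in AZD than in S, and S lay close to None. That None stood above AZD without overlap was therefore largely set by the choice. The median CPM over the 369 genes was 30.2 to 41.2 in the 4 None libraries, 2.62 to 3.55 in the 4 Glu libraries and 0.429 to 0.532 in the 4 AZD libraries, which do not overlap. The median log2 fold change of the 369 genes was -3.59 in Glu against None and -5.47 in AZD against S, the latter being the difference they were chosen by.

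GA against Glu at 24 h, also with 0 libraries in common with AZD against S, called 9265 genes (76.3%), with 40.8% of all genes up and 35.6% down. Of the genes risen in AZD, 3208 (77.8%) rose in GA against Glu, which is 64.8% of those risen there, and 239 (5.80%) fell. Of the genes fallen in AZD, 3236 (68.9%) fell in GA against Glu, which is 75.0% of those fallen there, and 613 (13.0%) rose. The log2 fold changes had r = 0.64 and rho = 0.68 across genes.

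Sharing with GA against Glu was high at every size of change. Among genes that rose 4- to 16-fold in AZD, 616 of 651 (94.6%) rose and 5 fell, and among those that rose 16-fold or more, 107 of 125 (85.6%) rose and 1 fell. Among falls the share was 64.05% under 2-fold, 73.0% at 2- to 4-fold, 68.6% at 4- to 16-fold and 77.2% (285 of 369) at 16-fold or more. In the same order, 14.1, 12.2, 14.4 and 7.59% of these genes rose in GA against Glu. At 24 h the 369 genes had a median of 0.450, 0.556 and 0.590 CPM in the 3 GA libraries, beside the levels of AZD and under those of Glu.

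**Figure D5:**
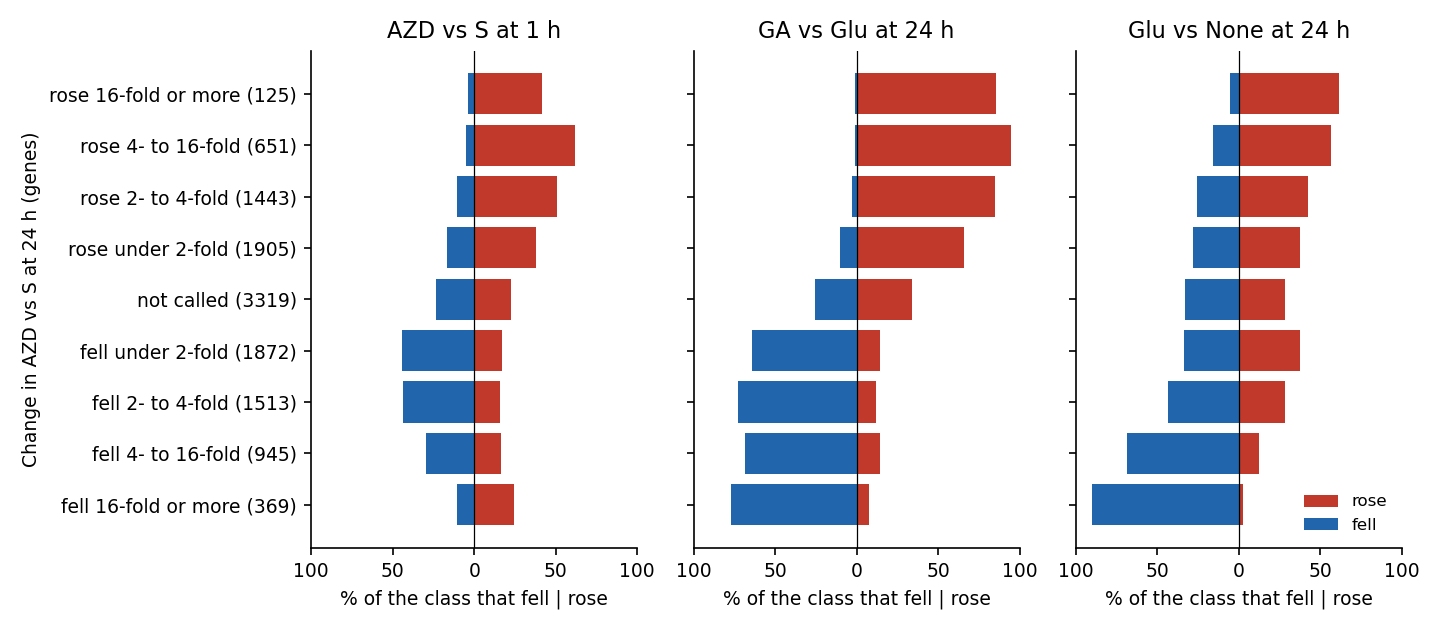
Share of genes called risen (right of 0) or fallen (left of 0) in AZD against S at 1 h, GA against Glu at 24 h and Glu against None at 24 h, for classes of genes by their change in AZD against S at 24 h, with the number of genes in each class in brackets. In Glu against None the fallen share grows from 33.6% for falls under 2-fold to 90.2% for falls of 16-fold or more, while at 1 h it drops from 44.1% to 10.3%. S lay close to None, so the large fallen shares in Glu were in part set by the choice of classes.

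Called genes were spread over the whole set of loci. By the prefix of the locus ID, which runs from Cz01 to Cz19 and UNPL in this table, the called share ranged from 69.1% of 220 genes in Cz19 to 77.5% of 529 in Cz14, around the 72.7% of all genes. The risen share ran from 29.9% in Cz13 to 37.1% in UNPL, and the fallen share from 32.5% in Cz15 to 42.0% in Cz14. Cz15 and Cz05 were the prefixes with more rises than falls, at 156 against 138 and 294 against 291, where the majority over all genes moved with the setting. Of the 426 UNPL genes, 27 fell and 12 rose 16-fold or more. Both are larger shares than the 3.04% and 1.03% of all genes, so the largest changes were less evenly spread. No test was made between prefixes.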

How the data were processed

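Polyadenylated RNA was sequenced as read pairs and reads were trimmed with BBDUK, per the labels' protocols. Salmon and DESeq2 1.46.0 are named without roles, per the submitters' processing notes. No build, annotation or strand setting is given in the sources used here. The authors deposited a table of estimated counts per gene, whose totals differ between libraries. Of values above 0 and under 20, 1.29% were whole within 0.001, so they are not plain read tallies. They were rounded before testing. Of 12459 genes, 48 had no count, and 0 columns belonged to other samples. Reads of near-identical copies or overlapping genes may be divided between IDs.

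Genes were kept by edgeR's filterByExpr (minimum count 10, minimum total 15), which left 12142. All 38 libraries entered 1 edgeR 4.0.16 quasi-likelihood fit in R 4.3.3, with 1 coefficient for each of the 10 groups (TMM, 28 residual degrees of freedom). P-values were adjusted over all genes by Benjamini-Hochberg, and calls were made at 0.05. SEs were approximated from the fold change and its F statistic. Log2 CPM used a prior count of 2. Single values were compared by exact permutation over libraries. DESeq2 1.42.0 was an alternative. Code was tested on simulated data. Replicate pairs within AZD and S differed beyond sampling noise (22.8 to 130 as chi-square over its degrees of freedom), so none was counted once.

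Named genes followed a rule. In the main comparison they were called genes without overlap of libraries and with at least 10 CPM in the higher group, taking the largest fold change and the largest CPM difference per direction. For the 24 h minus 1 h contrast they were the extremes among genes called in opposite directions, and for S against None the largest rise and fall. Members, rules and groups were chosen with earlier results of these data known.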

Additional observations from a re-analysis of the deposited data

Results flagged for a closer look

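The AZD against S response differed between 24 h and 1 h for 7170 genes by the test of the difference (edgeR's quasi-likelihood test), in samples whose title prefix changed with the time. Among the named genes the log2 difference of the responses was 5.28 for Cz05g12170, -12.72 for Cz02g20090, -9.44 for Cz03g21010, 8.92 for Cz05g31250 and -12.38 for Cz06g05030. Cz02g20090 and Cz06g05030 had 0 counts in AZD at 24 h, so these fitted values depend on the prior count and are no measure of size.

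In AZD at 24 h, replicate 2 held 15.4 CPM of Cz03g21010, apart from the other 3 libraries, whose highest was 7.86 CPM. In Glu at 24 h, replicate 1 held 8563 CPM of Cz09g11130, apart from the others, whose lowest was 8967 CPM. Of 66 groups of 4 libraries examined, 2 had such a library, and chance gives about 1 in 20.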

How the results depend on the processing

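The count for AZD against S at 24 h stayed within 1.5 times of 8823 in all 15 settings (8511 to 9104), and so did AZD against None, AZD against S at 1 h, the difference between the times, GA against Glu and Glu against None in every setting run. S against None did not. Its 116 genes became 51 with library totals alone, 262 with DESeq2, 32 when only the S and None libraries were fitted, 35 with the replicate block, and 20 to 176 with single libraries left out. The cause was not tested. With library totals alone, rises made up 27.0% of calls at 1 h in place of 52.6%, and 34.9% in Glu against None in place of 47.6%. Of S against None calls, 42.2% rose in the main setting and 74.5% with library totals alone. No named gene reversed, and the difference between the highest and lowest level bins in median log2 fold change was -0.41 with 5 bins and -0.78 with 10. The share of 16-fold falls that also fell in Glu, whose settings were added after seeing the data, was 89.1 to 94.2%.

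With the block for replicate number within time, 8646 genes differed between AZD and S at 24 h. Libraries of the same number were not paired, since the correlations of their deviations ran from -0.18 to 0.16 over the 4 AZD and S pairs. Depth limits the genes with few counts: 57 of the 369 large falls had under 10 counts over the AZD libraries, and 22 of the 125 large rises over the S libraries, so their folds are imprecise.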

Other observations

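Of the 114 genes that went from 10 CPM or more in S to under 1 CPM in AZD at 24 h, 44 had risen and 3 had fallen in AZD against S at 1 h, where 28.4% of all genes rose and 25.5% fell. Without S replicate 1 at 1 h, these counts were 27 and 3. In GA against Glu at 24 h, 102 of the 114 fell and 3 rose, where 35.6% of all genes fell and 40.8% rose. Their median level was 29.3 CPM in S, 40.1 in None, 2.98 in Glu, 0.323 in AZD and 0.426 in GA at 24 h. The 18 genes with the reverse pattern had medians of 0.336 CPM in S, 25.7 in AZD, 49.7 in GA and 0.910 in Glu, and 17 of them rose in GA against Glu. Both sets were chosen by the AZD and S levels at 24 h.

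Genes next to each other in the order of the table, within a prefix and without UNPL, had log2 fold changes in AZD against S at 24 h that correlated weakly (r = 0.071, rho = 0.078 over 11697 pairs). The value was r = 0.012 at 2 rows apart and -0.010 at 50 rows apart. The table gives no coordinates, and reads shared between neighbouring copies would add to such a value, which was not tested.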
